A study of Mus musculus with 12 samples.

Results

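The genes described here encode the tropomyosins (Tpm1, Tpm2, Tpm3 and Tpm4), the tropomodulins Tmod1, Tmod2 and Tmod3 and the leiomodin Lmod1, which bind along or at the end of the actin filament. Every probe whose accession belongs to a RefSeq transcript of one of these 8 genes was taken, which gave 15 of the 55681 probes on the array and 8 of the 21154 genes with a named probe. Tpm1 had 5 probes, Tpm3 had 3, Tpm2 had 2, and the other genes had 1 each.

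The data were 12 single-colour expression arrays of mouse neural progenitor cells (NPCs) obtained by differentiation in vitro, in 6 groups of 2 arrays. In the overexpression experiment, cells received a retroviral transgene of EGFP (the control), Mkl1 or Srf. In the knockdown experiment, a retrovirus carried a hairpin targeting either EGFP (shEGFP, which served as control) or Actb, for which there were 2 sequences, shActb_1 and shActb_2. All groups were kept in RHB basal medium with EGF and bFGF, and per the study's methods the transduced cells were selected with puromycin and the NPC lines used derive from an embryonic stem cell line carrying a blasticidin resistance cassette at Oct4. One of these lines also carries doxycycline-inducible reprogramming factors, and the labels do not say which line was hybridised, so the groups stand for cultured lines and not for animals. The study calls the Actb knockdown arrays technical duplicates, and nothing in the labels gives separate cultures for the others, so p-values measure the spread between arrays.

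Tropomyosins are coiled-coil dimers that polymerise head to tail along both sides of the actin filament and govern which myosins and severing proteins reach it. Each tropomyosin gene makes several proteins through alternative promoters and alternative exons, with long forms typical of muscle and both long and short forms in non-muscle cells. Tropomodulins cap the pointed end of the filament together with tropomyosin, and leiomodins, their relatives, nucleate new filaments. Mkl1 (also called Mrtfa) is a coactivator held out of the nucleus by monomeric actin, and it binds Srf, which recognises the CArG box of many genes of the actin cytoskeleton. The comparisons therefore asked whether these filament-binding genes changed when Srf or Mkl1 was overexpressed or when β-actin was reduced.

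Between 59.3% and 72.5% of probes were well above background per array, no spot was saturated, and duplicates correlated at r of 0.993 to 0.998 across probes. On the slide of the overexpression experiment the EGFP arrays lay in row 2 and all others in row 1, so row and transgene cannot be told apart in comparisons with EGFP. Actb was lower with both hairpins, by a log2 difference of -0.53 ± 0.05 (SE, adjusted p = 0.00128, limma) for shActb_1 and -0.65 ± 0.05 (adjusted p = 0.000197, limma) for shActb_2. The Srf gene itself went against its label, since both Srf probes were lower on the arrays labelled Srf than on the EGFP arrays, by log2 differences of -2.46 and -1.40 (adjusted p = 2.54e-06 and 0.000266, limma). Both probes of Mkl1 were close to control on the Mkl1 arrays, at log2 differences of 0.20 and 0.17 (adjusted p = 0.12 and 0.312, limma). Whether these probes can detect the transgene transcripts was not tested, so Srf and Mkl1 below name arrays by their label and not by a measured level of the transgene. Of 10 neural progenitor markers, 9 were well above background on both arrays of every group, Olig2 being the exception. Their levels were not constant. Of 9 tested, 2 were higher and 1 lower on the arrays labelled Srf (adjusted p below 0.05, limma). The counts were 1 and 3 with Mkl1, 0 and 3 with shActb_1, and 3 and 2 with shActb_2. The part of these changes in the values below was not tested.

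Start-site sequences are shown first for the 3 tropomyosin genes with at least 1 probe that was higher on the Mkl1 arrays and with both hairpins (1 of 5 for Tpm1), and for Tmod1, which was higher on the arrays labelled Srf. They are RefSeq windows of 300 bases in build GRCm38.p6, from 250 bases before to 50 bases after the annotated start, written 5′ to 3′ on the gene's strand. The Tpm1 window is chr9:67049164-67049463 on the minus strand, that of Tpm2 is chr4:43523505-43523804 on the minus strand, that of Tpm4 is chr8:72135038-72135337 on the plus strand and that of Tmod1 is chr4:46038972-46039271 on the plus strand. Capitals mark a match to CATTCC, the core bound by TEAD factors, read on either strand (as GGAATG on the other).
Tpm1: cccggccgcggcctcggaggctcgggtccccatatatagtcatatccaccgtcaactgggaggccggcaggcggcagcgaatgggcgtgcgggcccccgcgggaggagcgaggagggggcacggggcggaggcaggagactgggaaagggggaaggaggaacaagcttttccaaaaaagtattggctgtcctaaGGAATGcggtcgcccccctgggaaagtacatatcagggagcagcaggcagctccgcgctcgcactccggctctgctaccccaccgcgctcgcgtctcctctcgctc
Tpm2: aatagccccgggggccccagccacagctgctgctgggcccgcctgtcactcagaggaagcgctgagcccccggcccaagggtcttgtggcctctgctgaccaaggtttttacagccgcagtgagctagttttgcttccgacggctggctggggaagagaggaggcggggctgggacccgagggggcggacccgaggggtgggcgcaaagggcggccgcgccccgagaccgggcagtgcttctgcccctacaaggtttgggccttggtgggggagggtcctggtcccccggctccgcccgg
Tpm4: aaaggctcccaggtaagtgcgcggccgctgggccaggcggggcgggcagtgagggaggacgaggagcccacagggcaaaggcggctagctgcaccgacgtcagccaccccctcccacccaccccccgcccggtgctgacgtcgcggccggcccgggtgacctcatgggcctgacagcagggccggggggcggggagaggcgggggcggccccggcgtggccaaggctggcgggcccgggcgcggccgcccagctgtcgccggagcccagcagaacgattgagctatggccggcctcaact
Tmod1: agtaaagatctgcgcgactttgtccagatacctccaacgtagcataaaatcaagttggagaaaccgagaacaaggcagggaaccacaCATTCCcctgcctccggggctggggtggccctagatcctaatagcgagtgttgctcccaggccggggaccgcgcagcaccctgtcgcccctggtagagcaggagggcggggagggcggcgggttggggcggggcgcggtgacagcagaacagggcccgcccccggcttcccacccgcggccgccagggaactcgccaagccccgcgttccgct
Of the 8 genes, 7 had 9 windows in the table, and Tmod3 had none. None of the 9 windows held an exact CArG box (CC, then 6 bases that are each A or T, then GG), which 1.63% of all 32851 windows did, and none held TATAAA, found in 13.6% of all windows. CATTCC stood 56 bases before the start of Tpm1, 163 bases before that of Tmod1 and 130 bases before that of Lmod1, and 14.7% of all windows had a match. GC content was 66.3% for Tpm1, 70.3% for Tpm2, 76% for Tpm4 and 66% for Tmod1, against a median of 52.7% over all windows. The other member windows lay nearer to that median, at 52% and 55.7% for Tpm3, 56.3% and 49.3% for Tmod2 and 55% for Lmod1. For comparison, a CArG box was found in 3 of the 4 actin genes with a window, 0 of 6 troponins, 1 of 7 calponin, transgelin and caldesmon genes and 1 of 8 filament-end and nebulin family genes. A gene with several promoters is represented here by only 1 or a few of them, and the letters in these windows say nothing about binding.

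Levels below are log2 signals relative to the 75th percentile of the same array, so that 0 is the 75th percentile itself, and levels of different probes were not compared with each other. A probe was tested where it was well above background on all arrays of at least 1 of the groups compared, and it passed where limma's p, adjusted by the Benjamini-Hochberg method over all tested probes, was below 0.05. The EGFP arrays served as control for both the Srf and the Mkl1 comparison, and the shEGFP arrays for both hairpins, so comparisons within an experiment share control arrays. With 2 arrays per group, lack of overlap was common. Treated and control arrays did not overlap for 22421 of 35556 tested probes on the arrays labelled Srf and 21961 of 35769 with Mkl1. With shActb_1 this held for 20662 of 36242 and with shActb_2 for 27641 of 36177. Among the tested members the counts were 11 of 14, 10 of 13, 9 of 12 and 10 of 12 in that order.

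**Figure D1:**
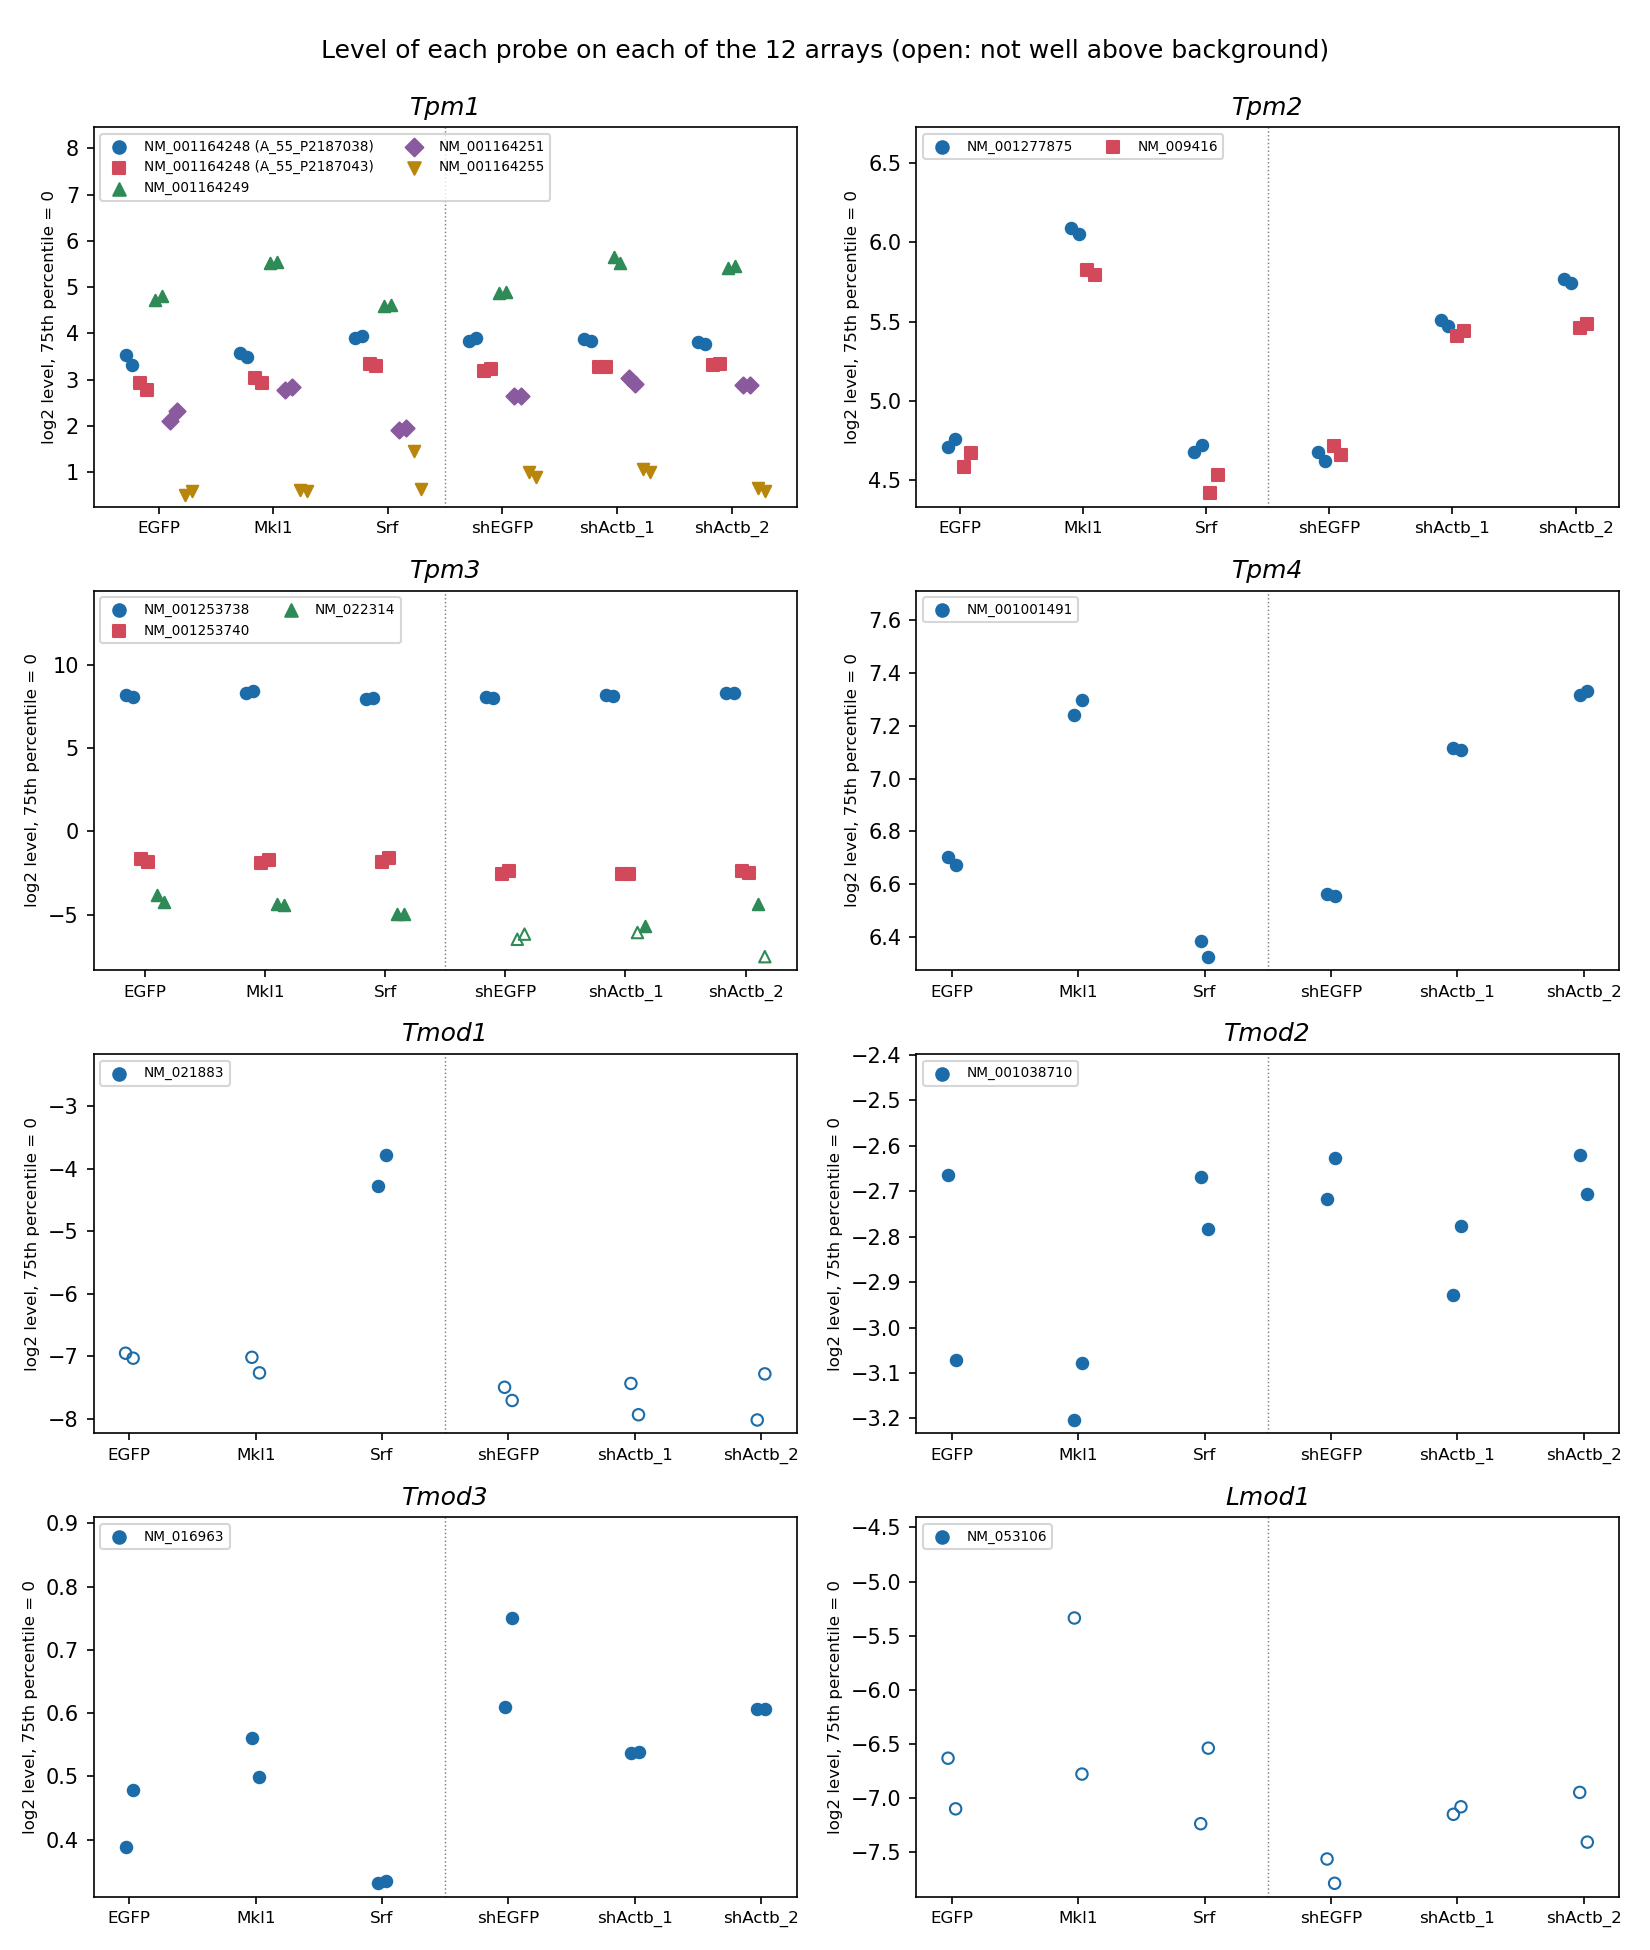
Levels of the 15 probes on the 12 arrays, 1 panel per gene, as log2 signal relative to the array's 75th percentile (y axis) by group (x axis, with a dotted line between the overexpression and knockdown experiments). Each point is 1 array, open where the probe was not well above background. Tpm2 and Tpm4 were higher on the Mkl1 arrays and with both hairpins, and Tmod1 was well above background only on the arrays labelled Srf.

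Tpm2, which encodes β-tropomyosin, changed most among the tropomyosins with Mkl1 and with both hairpins. The probe for NM_001277875 read 4.71 and 4.76 on the EGFP arrays, 6.09 and 6.05 on the Mkl1 arrays, and 4.68 and 4.72 on the arrays labelled Srf. In the knockdown experiment it read 4.68 and 4.63 with shEGFP, 5.51 and 5.47 with shActb_1, and 5.77 and 5.74 with shActb_2. The Mkl1 arrays stood above all others of their experiment, and all 4 Actb knockdown arrays stood above both shEGFP arrays, while the arrays labelled Srf overlapped the EGFP arrays. The difference was 2.52-fold for Mkl1 (log2 1.33 ± 0.05 SE, adjusted p = 2.8e-05, limma), 1.79-fold for shActb_1 (0.84 ± 0.06, adjusted p = 0.000241) and 2.15-fold for shActb_2 (95% interval of the log2 difference 0.97 to 1.23, adjusted p = 4.48e-05). On the arrays labelled Srf it was -0.04 ± 0.05 (adjusted p = 0.66, limma).

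The second Tpm2 probe, for NM_009416, moved in the same directions. It read 4.59 and 4.67 on the EGFP arrays, 5.83 and 5.80 on the Mkl1 arrays, and 4.42 and 4.53 on the arrays labelled Srf. With hairpins it read 4.72 and 4.66 for shEGFP, 5.41 and 5.44 for shActb_1, and 5.46 and 5.49 for shActb_2. Again the Mkl1 and Actb knockdown arrays lay above their controls with no overlap, and the arrays labelled Srf lay just below. The log2 differences were 1.18 ± 0.06 for Mkl1 (2.27-fold, adjusted p = 8.1e-05, limma), 0.74 ± 0.06 for shActb_1 (1.66-fold, adjusted p = 0.00076) and 0.79 ± 0.06 for shActb_2 (1.72-fold, adjusted p = 0.000206), against -0.15 ± 0.06 for the arrays labelled Srf (adjusted p = 0.118). With shActb_2 the NM_009416 probe rose less than the NM_001277875 probe, by a log2 difference of -0.32 ± 0.06 (adjusted p = 0.00708, limma on the difference of both probes per array). In the other treatments this difference was between -0.15 and -0.10 and did not pass (adjusted p = 0.186 to 0.664). These are bulk cultures, in which fewer cells of a type and less RNA per cell cannot be told apart.

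Tpm4 encodes the main short, cytoskeletal δ-tropomyosin and is represented by 1 probe, for NM_001001491. Its level was 6.70 and 6.67 on the EGFP arrays, 7.24 and 7.30 on the Mkl1 arrays, and 6.38 and 6.32 on the arrays labelled Srf. The hairpin arrays gave 6.56 and 6.55 for shEGFP, 7.12 and 7.11 for shActb_1, and 7.32 and 7.33 for shActb_2. No group overlapped another within its experiment, and the Mkl1 arrays and the arrays labelled Srf lay on opposite sides of the EGFP arrays. Tpm4 rose by log2 0.58 ± 0.05 with Mkl1 (1.5-fold, adjusted p = 0.00065, limma), by 0.55 ± 0.05 with shActb_1 (1.47-fold, adjusted p = 0.00117) and by 0.77 ± 0.05 with shActb_2 (1.7-fold, adjusted p = 0.000124). On the arrays labelled Srf it fell by 0.33 ± 0.05 (adjusted p = 0.00328, limma).

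Tpm1, which encodes α-tropomyosin, gave different answers by probe. The probe for NM_001164249 read 4.73 and 4.81 on the EGFP arrays, 5.52 and 5.55 on the Mkl1 arrays, and 4.60 and 4.61 on the arrays labelled Srf. With hairpins it read 4.87 and 4.90 for shEGFP, 5.66 and 5.51 for shActb_1, and 5.42 and 5.47 for shActb_2. Like Tpm2 and Tpm4, it was higher on the Mkl1 and Actb knockdown arrays than on their controls, with no overlap. The log2 difference was 0.76 ± 0.07 for Mkl1 (1.7-fold, adjusted p = 0.000529, limma), 0.70 ± 0.07 for shActb_1 (1.62-fold, adjusted p = 0.00112) and 0.56 ± 0.07 for shActb_2 (1.47-fold, adjusted p = 0.000791), and -0.16 ± 0.07 for the arrays labelled Srf (adjusted p = 0.109).

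The 2 probes for another transcript, NM_001164248, had another order of treatments in the overexpression experiment. The first (A_55_P2187038) read 3.54 and 3.32 on the EGFP arrays, 3.59 and 3.50 on the Mkl1 arrays, and 3.90 and 3.94 on the arrays labelled Srf. The second (A_55_P2187043) read 2.93 and 2.77, 3.04 and 2.93, and 3.34 and 3.29 in the same order. Both were highest on the arrays labelled Srf, and the Mkl1 arrays overlapped or adjoined the EGFP arrays. They rose on the arrays labelled Srf by log2 0.49 ± 0.08 and 0.47 ± 0.07 (1.4-fold and 1.38-fold, adjusted p = 0.00434 and 0.00297, limma), while the differences for Mkl1 were 0.11 and 0.13 (adjusted p = 0.363 and 0.219). With the hairpins these probes lay between 3.78 and 3.89 and between 3.19 and 3.33 on every array, and their differences from shEGFP ran from -0.07 to 0.11 (adjusted p = 0.252 to 0.983).

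Another Tpm1 probe, for NM_001164251, lay at 2.10 and 2.31 on the EGFP arrays, 2.78 and 2.84 on the Mkl1 arrays, and 1.91 and 1.95 on the arrays labelled Srf. It rose with Mkl1 by log2 0.60 ± 0.08 (1.52-fold, adjusted p = 0.00313, limma) and was lower on the arrays labelled Srf, by -0.27 ± 0.08 (adjusted p = 0.0486), a call lost in 8 of 13 alternative settings, among them those without EGFP replicate 2 (-0.16), Srf replicate 1 (-0.25) or Srf replicate 2 (-0.29). With hairpins it read 2.65 and 2.64 for shEGFP, 3.04 and 2.90 for shActb_1, and 2.89 and 2.89 for shActb_2. Every Actb knockdown array was above both shEGFP arrays, yet the differences of 0.32 ± 0.08 and 0.24 ± 0.08 did not pass (adjusted p = 0.0563 and 0.0512, limma). Both passed with the filter set to all 12 arrays and with a trended robust variance (adjusted p = 0.0145 to 0.0367, limma). With shActb_2 the probe also passed under normexp background correction and with the compared arrays alone (adjusted p = 0.0337 and 0.0403, limma). The last Tpm1 probe, for NM_001164255, was between 0.51 and 1.45 on all 12 arrays and passed in no treatment. Its highest value came from Srf replicate 1, whose duplicate read 0.63. Without that duplicate the difference from EGFP was 0.90 and passed (adjusted p = 0.00188, limma), but the remaining array is then assumed to vary like the other groups.

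**Figure D2:**
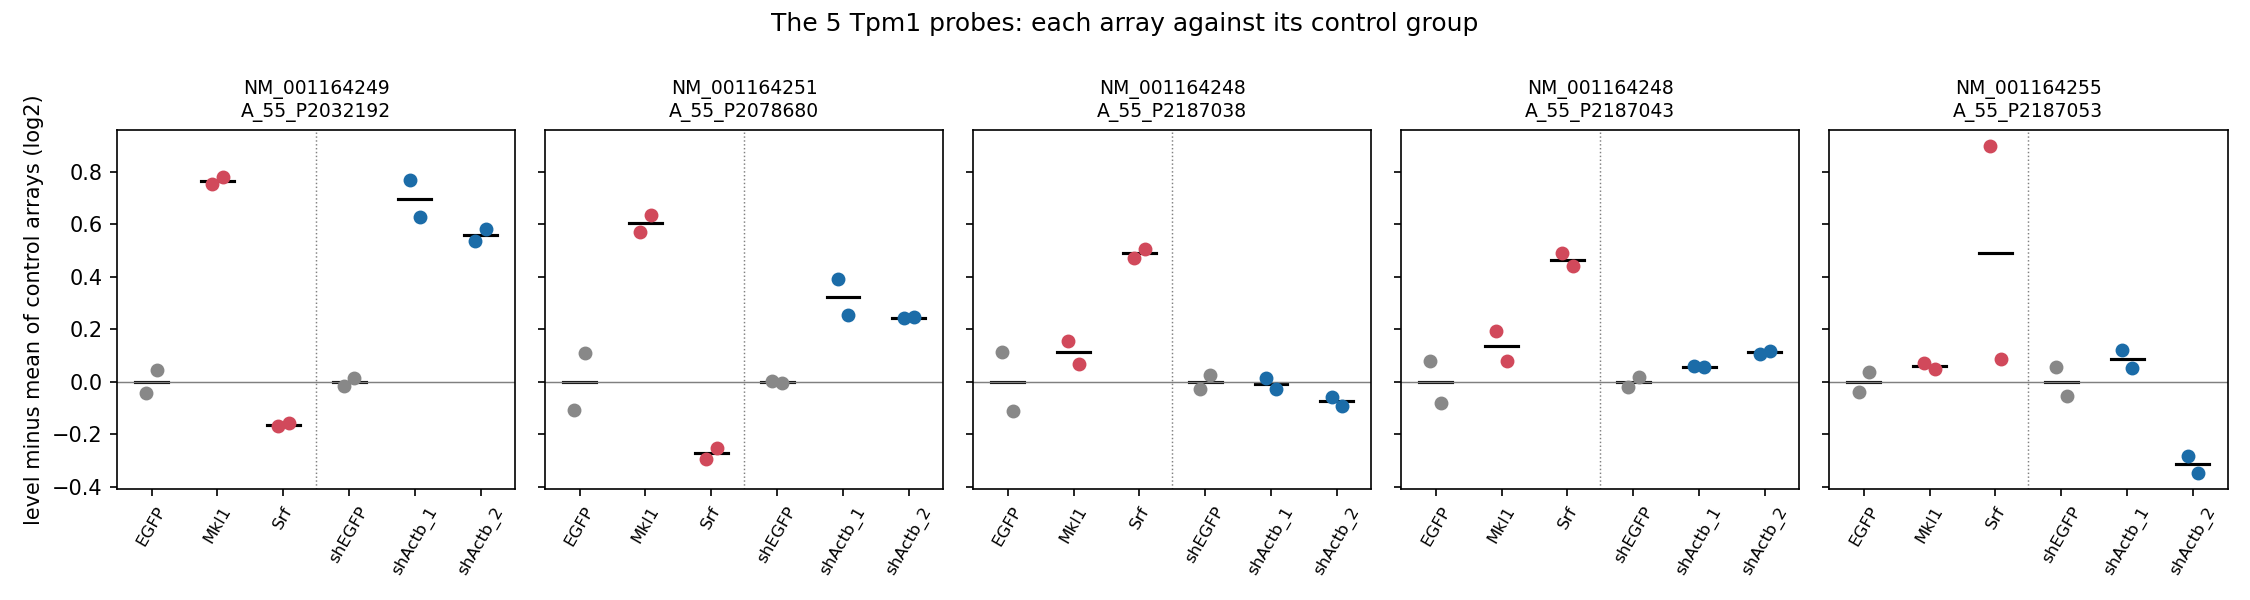
The 5 Tpm1 probes by treatment, as log2 level minus the mean of the experiment's control arrays (y axis); points are single arrays and bars are group means. The NM_001164249 and NM_001164251 probes are raised on the Mkl1 arrays, and both NM_001164248 probes lie highest on the arrays labelled Srf.

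Differences between the Tpm1 probes were tested on the per-array difference of each pair of probes, over all pairs of probes of one named gene. On the arrays labelled Srf, 4 of 10 Tpm1 pairs passed, where 7.48% of all 5973 pairs did. All 4 set NM_001164249 or NM_001164251 against a NM_001164248 probe, with log2 differences between -0.76 and -0.63 (adjusted p = 0.00959 to 0.0146, limma), and each was lost without Srf replicate 1 or Srf replicate 2 (adjusted p = 0.0536 to 0.0904). With Mkl1, 2 of 10 pairs passed against 2.75% of 5962 pairs, and they ran the other way, NM_001164249 having risen by 0.65 and 0.63 more than the NM_001164248 probes (adjusted p = 0.0289 and 0.0274). These calls were lost without EGFP replicate 1 or either Mkl1 array (adjusted p = 0.0505 to 0.161). With shActb_1, 3 of 10 passed against 0.858% of 5945 pairs, and with shActb_2, 4 of 10 passed against 24.8% of 5944 pairs. The shActb_1 calls were lost on leaving out any of the 4 arrays compared (adjusted p = 0.0957 to 0.216), while of the 4 with shActb_2 the pair of NM_001164249 and probe A_55_P2187038 kept its call. The shActb_2 pairs of NM_001164249 with A_55_P2187043 and with NM_001164255 were lost on leaving out any of the 4 arrays (adjusted p = 0.0534 to 0.124), and that with NM_001164251 without shEGFP replicate 1 or shActb_2 replicate 2 (adjusted p = 0.0594 and 0.0698). In each hairpin NM_001164249 rose more than NM_001164251, by 0.38 (adjusted p = 0.0413, limma) and 0.32 (adjusted p = 0.00959). The shActb_1 call was also lost with the replicate block (adjusted p = 0.0675) and with a trended robust variance (adjusted p = 0.0508). The 2 probes for NM_001164248 differed from each other by -0.19 to 0.02 and passed in no treatment (adjusted p = 0.0563 to 0.869). Probe positions were not used here, so the exons or transcripts that each Tpm1 probe detects are known only as far as its accession says, and hybridisation to other tropomyosin transcripts was not tested.

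Tpm3, the γ-tropomyosin gene, showed little change at its bright probe. The NM_001253738 probe read 8.19 and 8.06 on the EGFP arrays, 8.28 and 8.39 on the Mkl1 arrays, 7.92 and 7.98 on the arrays labelled Srf, 8.08 and 8.01 with shEGFP, 8.18 and 8.14 with shActb_1, and 8.27 and 8.27 with shActb_2. All 12 arrays lay within a narrow range, with the treated arrays just beside their controls. Against a control it passed only for shActb_2, at log2 0.23 ± 0.07 (1.17-fold, adjusted p = 0.0352, limma), and this call was lost on leaving out any of the 4 arrays (0.19 to 0.27) and turned in sign under quantile normalization (-0.11). The log2 difference was 0.21 ± 0.07 for Mkl1 (adjusted p = 0.0716), -0.17 ± 0.07 for the arrays labelled Srf (adjusted p = 0.116) and 0.12 for shActb_1 (adjusted p = 0.412). The NM_001253740 probe ranged from -2.55 to -1.62 and passed in no comparison with a control. The NM_022314 probe was well above background on all arrays of the overexpression experiment but on only 2 of the 6 hairpin arrays, and it did not pass where it was tested. With shActb_2 it read -4.37 and -7.51, the latter not well above background, and without that second array it passed the filter and was higher than with shEGFP by a fitted 1.94 (adjusted p = 0.00469, limma), which is no measured size since no shEGFP array was well above background, the remaining array being assumed to vary like the other groups.

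Tmod1 encodes the tropomodulin of striated muscle and red blood cells. It was at -6.95 and -7.03 on the EGFP arrays, -7.02 and -7.26 on the Mkl1 arrays, and -4.27 and -3.78 on the arrays labelled Srf, and between -8.02 and -7.28 on the 6 hairpin arrays. Only the 2 arrays labelled Srf were well above background, and neither overlapped any other array. Because the controls give no measured level, the size of the change is not known. As a reference, the lowest signal well above background on each dim array was taken. Tmod1 on the arrays labelled Srf was 2.94-fold above this reference for EGFP (adjusted p = 0.000338, limma). For Mkl1 it was 3.03-fold above the reference (adjusted p = 0.000241, limma). The reference is no strict ceiling. On the EGFP arrays, where the reference mean was -5.58, Olig2 read -5.19 and -5.55 without being well above background. These p-values come from the fit to readings that include those below background, and Tmod1 entered the test only through the arrays labelled Srf, so it had to differ. Under normexp background correction the fitted log2 difference from EGFP was 0.76, which lies below the log2 difference of 1.56 from the reference. The summed signal of several marker lists was higher on the same arrays. For pluripotent cells the log2 of the summed signal was 1.57 to 1.78 on the arrays labelled Srf, 0.01 to 0.22 on the EGFP arrays and -0.28 to -0.22 on the Mkl1 arrays, but against EGFP only Esrrb and Dppa5a of the 5 passed, by 2.53 and 0.46 on the log2 scale, and Pou5f1 was at -0.34 (adjusted p = 0.629, limma). For astrocytes it was 2.27 to 2.32 on the arrays labelled Srf, at most 1.63 on the EGFP arrays and at most 1.39 on the Mkl1 arrays, and 1 of 3 tested markers, Aldh1l1, was higher against EGFP, the median difference being -0.31. The summed signal of striated or smooth muscle markers was also higher. Its log2 was 0.49 to 0.60 on the arrays labelled Srf, -1.74 to -1.63 on the EGFP arrays and -0.32 to -0.27 on the Mkl1 arrays. Of 4 tested on the arrays labelled Srf against EGFP, 3 were higher, Nkx2-5 by 3.63 on the log2 scale. Des was at 0.05 (adjusted p = 0.717, limma). Myh11, among the 3, entered the test only through the arrays labelled Srf and had to differ. Of the 8 muscle markers, 4 were well above background on both arrays labelled Srf, 4 on both Mkl1 arrays and 3 on both EGFP arrays, and Myog was so on none of the 12 arrays. The part of these lists in the Tmod1 result was not tested.

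Tmod2, the tropomodulin of neurons, was between -3.20 and -2.62 on all 12 arrays. Its differences from control ran from -0.27 to 0.14, and none passed (adjusted p = 0.186 to 0.963, limma). Without EGFP replicate 2, whose Tmod2 reading was the lower of its pair, the difference with Mkl1 was -0.48 and passed (adjusted p = 0.0161), the EGFP arm then being 1 array assumed to vary like the other groups. Tmod3, the widely expressed form, was between 0.33 and 0.75 and differed from control by -0.14 to 0.10 (adjusted p = 0.262 to 0.41). The 95% intervals of these 8 differences lay between -0.58 and 0.45 on the log2 scale, from all arrays, so changes over 2-fold in either gene fall outside them. The summed signal of the neuron markers was lower in every treatment, its log2 being 2.98 to 3.14 on the Mkl1 arrays and 3.33 to 3.43 on the arrays labelled Srf against 3.67 to 3.77 with EGFP, and 3.24 to 3.33 with shActb_1 and 3.17 to 3.29 with shActb_2 against 3.70 to 3.90 with shEGFP. Single neuron markers did not all move down, 2 being higher and 2 lower on the arrays labelled Srf, 0 and 3 on the Mkl1 arrays, 1 and 2 with shActb_1 and 0 and 2 with shActb_2. The part of this in the Tmod2 values was not tested. Lmod1, the leiomodin of smooth muscle, was not well above background on any array, with readings from -7.79 to -5.34, and was not tested.

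**Figure D3:**
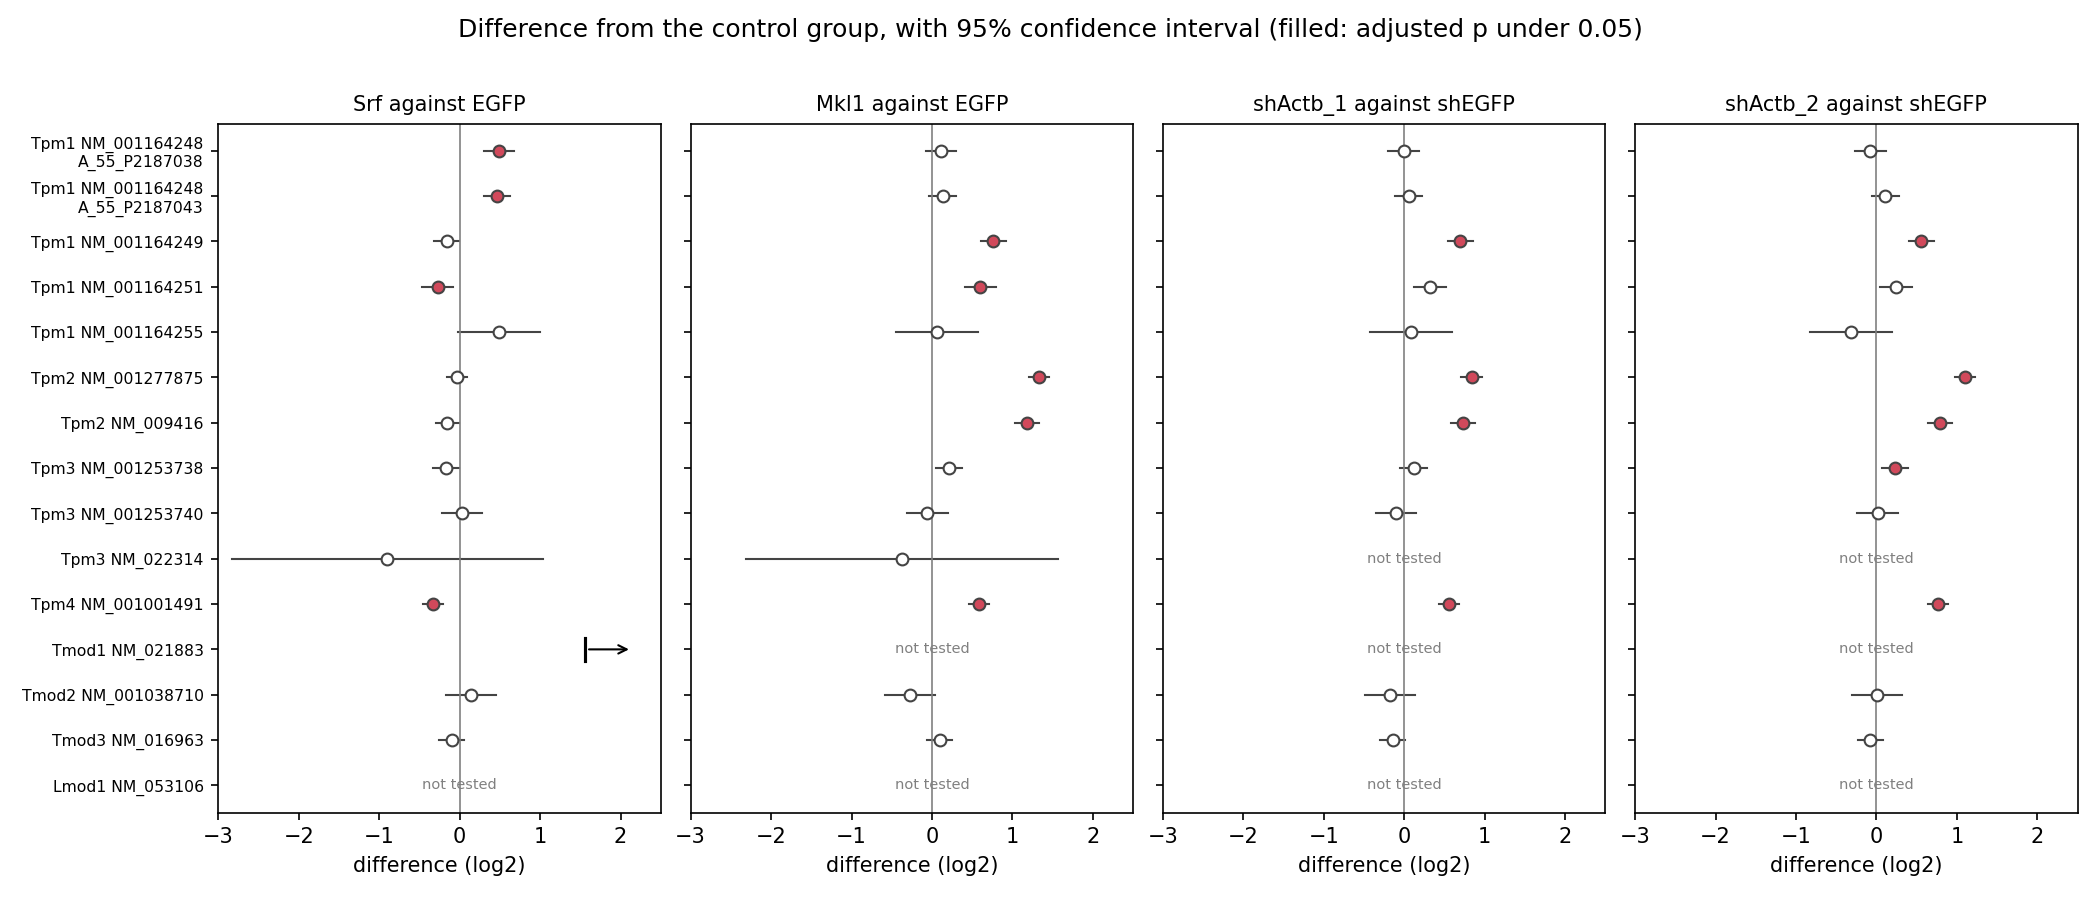
Log2 difference of each of the 15 probes from control (x axis) in the 4 treatments, 1 panel each, with 95% confidence intervals from limma; filled points had an adjusted p below 0.05. Tmod1 on the arrays labelled Srf is drawn as an arrow from its difference to the lowest signal well above background on the EGFP arrays. Probes that were not tested are marked. Tpm2, Tpm4 and the NM_001164249 probe of Tpm1 lie to the right in 3 panels and near or to the left of 0 in the panel of the arrays labelled Srf.

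Counted over all 15 probes, 13 were tested for Mkl1, of which 5 were higher and 0 lower, where 12.5% of all 35769 tested probes were higher and 8.34% lower. Over 2-fold, 2 were higher, both of Tpm2, against 1.29% of all tested probes. For shActb_1, 4 of 12 were higher and 0 lower, against 5.29% and 4.12% of 36242 probes, and none exceeded 2-fold, as 0.486% of probes did. For shActb_2, 5 of 12 were higher and 0 lower, against 21.7% and 18.6% of 36177 probes, with 1 over 2-fold against 1.73%. The share of members that were higher stood above that of all tested probes for Mkl1 and shActb_1, and nearer to it for shActb_2. The members were chosen with earlier results of these data known, so these shares are a description and no test. The higher probes came from Tpm1, Tpm2 and Tpm4 (with shActb_2 also Tpm3), and probes of 1 gene are not independent members. On the arrays labelled Srf, 3 of 14 were higher and 2 lower, against 12.9% and 12.5% of 35556 probes, and 1, Tmod1, was over 2-fold higher, against 3.29%. The median log2 difference of the tested members was 0.13 for Mkl1, 0.10 for shActb_1, 0.17 for shActb_2 and -0.07 for the arrays labelled Srf, beside -0.03, 0.01, -0.02 and -0.04 over all tested probes. A probe that passed the filter only in the group where it was bright, as Tmod1 did, had to differ.

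The arrays labelled Srf and the Mkl1 arrays were also compared directly. Of 14 tested member probes, 3 were higher on the arrays labelled Srf and 6 lower, where 11.1% and 14.5% of all 35721 tested probes were. Both Tpm2 probes were lower by log2 differences of -1.37 and -1.34 (adjusted p = 7.31e-06 and 1.42e-05, limma), and Tpm4 by -0.92 (adjusted p = 3.04e-05). The NM_001164249 and NM_001164251 probes of Tpm1 were lower by -0.93 and -0.88 (adjusted p = 7.84e-05 and 0.000313) and the bright Tpm3 probe by -0.38 (adjusted p = 0.00638). Both NM_001164248 probes of Tpm1 were higher, by 0.38 and 0.33 (adjusted p = 0.0128 for each), calls lost without Mkl1 replicate 2 (0.33 and 0.27) or either Srf array (0.30 to 0.39), and Tmod1 was higher too. The Tpm3 call was lost without Mkl1 replicate 2 (-0.32) or Srf replicate 1 (-0.35). Within the overexpression experiment, Tpm2 was thus highest with Mkl1, and its levels with EGFP and on the arrays labelled Srf did not differ past the threshold. Tpm4 was highest on the Mkl1 arrays, then on the EGFP arrays and lowest on the arrays labelled Srf, each step passing.

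Between the hairpins, 2 of 12 tested probes were higher with shActb_2 than with shActb_1 and 0 lower, where 16.7% and 15.4% of all 35428 tested probes were. They were the NM_001277875 probe of Tpm2, by log2 0.26 ± 0.06 (adjusted p = 0.0102, limma), and Tpm4, by 0.21 ± 0.05 (adjusted p = 0.0203), and both calls were lost on leaving out any of the 4 arrays (adjusted p = 0.0504 to 0.127). The Tpm4 call was lost in 7 of 12 settings in all, and its difference was 0.03 under quantile normalization (adjusted p = 0.711, limma). Tpm2 NM_009416 differed by 0.05 (adjusted p = 0.577) and Tpm1 NM_001164249 by -0.14 (adjusted p = 0.149). All arrays of shActb_2 were on 1 slide and those of shEGFP and shActb_1 on another, so hairpin and slide cannot be told apart for shActb_2. The 6 fibroblast markers had a log2 summed signal of 7.10 to 7.19 with shEGFP, 6.73 to 6.87 with shActb_1 and 6.38 to 6.44 with shActb_2, and of 7.44 to 7.45 with EGFP, 6.69 to 6.94 with Mkl1 and 6.64 to 6.69 on the arrays labelled Srf. This sum was thus lower on every treated array than on its controls, but the single markers did not all move down. On the arrays labelled Srf 2 of the 6 were higher and 3 lower, with Mkl1 0 and 3 of 5 tested, with shActb_1 0 and 2 of 5, and with shActb_2 0 and 4 of 5. The muscle sum was -1.37 to -1.35 with shEGFP, -1.39 to -1.24 with shActb_1 and -0.42 to -0.34 with shActb_2, and the astrocyte sum was 1.86 to 1.91, 0.89 to 1.04 and 1.14 to 1.26 in that order. Of the single muscle markers, 3 of 5 tested were higher and 1 lower with shActb_2, and 0 of 4 passed with shActb_1. The part of these lists in the tropomyosin values was not tested.

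Other genes of the thin filament were counted with 1 probe per gene. For comparison, of all tested probes 12.9% were higher and 12.5% lower on the arrays labelled Srf, and 12.5% and 8.34% with Mkl1. With shActb_1 these shares were 5.29% and 4.12%, and with shActb_2 21.7% and 18.6%. Of the 6 actins, 4 were higher and 0 lower both with Mkl1 and on the arrays labelled Srf, 4 higher and 1 lower with shActb_1, and 5 higher and 1 lower with shActb_2. In each treatment 4 were over 2-fold higher. Of all tested probes this held for 3.29% on the arrays labelled Srf, 1.29% with Mkl1, 0.486% with shActb_1 and 1.73% with shActb_2. Among the 4 was Actc1, with a mean of -7.01 on the EGFP and -7.29 on the shEGFP arrays. Its EGFP mean lay below -5.58, the mean of the lowest signals well above background there. Against EGFP, Actc1 thus entered the test only through the treated arrays and had to differ, and its fold is no measured size. Acta2, the smooth muscle α-actin, had the largest difference with Mkl1, at log2 6.93 (adjusted p = 2.91e-08, limma), and Actg2, the enteric smooth muscle actin, the largest on the arrays labelled Srf, at 4.60 (adjusted p = 2.54e-06). The 8 calponin, transgelin and caldesmon genes had 5, 5 and 6 higher and 0 lower with Mkl1, shActb_1 and shActb_2, and 3 higher and 1 lower on the arrays labelled Srf. Cnn1, the smooth muscle calponin, differed by log2 6.56 with Mkl1 and 1.14 on the arrays labelled Srf (adjusted p = 2.9e-08 and 5.19e-05, limma). Tagln, which had the largest difference of this list on the arrays labelled Srf, was at 2.34 there and 2.32 with Mkl1 (adjusted p = 0.000334 and 0.000812, limma).

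Of the 8 troponins, which regulate tropomyosin in striated muscle, 4 were higher and 2 lower on the arrays labelled Srf, 1 higher and 1 lower with Mkl1, 3 higher with shActb_1 and 2 higher with shActb_2. The numbers that were higher with Mkl1 and with shActb_2 were near the shares of all tested probes given above. Tnnt3, a skeletal muscle troponin T that binds tropomyosin, had the largest difference in each, at log2 3.50 on the arrays labelled Srf, 2.12 with shActb_1 and 2.60 with shActb_2 (adjusted p = 9.21e-06, 0.000178 and 4.33e-05, limma), and it was the gene that rose with Mkl1 (adjusted p = 0.000543). Among the filament-end and nebulin family genes, 0 of 8 tested passed on the arrays labelled Srf, 3 of 8 were higher with Mkl1, 1 of 8 with shActb_1, and 4 of 7 with shActb_2 besides 1 lower. Capzb, a subunit of the barbed-end capping protein, was the largest of these with Mkl1, at 0.58 (adjusted p = 0.00653, limma). Of Tmod4, Lmod2 and Lmod3, the remaining tropomodulin and leiomodin genes, 2 could be tested. Tmod4, a skeletal muscle tropomodulin, was lower on the arrays labelled Srf and the Mkl1 arrays, at -0.33 and -0.36 (adjusted p = 0.0365 and 0.0315, limma), and with shActb_2, at -1.38 (adjusted p = 0.000112). Lmod3, a striated muscle leiomodin, was lower with shActb_2, at -0.45 (adjusted p = 0.0275, limma), and neither gene passed with shActb_1.

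The genes whose pattern over the 12 arrays was most like that of Tpm2 (NM_001277875), after the mean of each experiment was subtracted, were Rsu1, Tmem109 and Abcb1b, with Pearson's r of 0.991, 0.990 and 0.990 among 16689 genes. For Tmod1 they were Alkal2, Tceal5 and Pla2g4e, with r of 0.989, 0.981 and 0.979. Tmod1 was well above background on only 2 of the 12 arrays, both labelled Srf, so its r values rest mainly on those 2. These values describe arrays that share groups and duplicates and carry no test.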

How the data were processed

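Total RNA of each sample was labelled with Cy3 and hybridised to 1-colour Agilent mouse arrays, whose 62976 spots fit the array type of the study's methods rather than that of the labels. Scans were read by the authors in Feature Extraction 11.5.1.1, and the deposited files give a processed signal intensity per spot, after background subtraction and before normalization between arrays. The authors also deposited a table of log2 values, which differed from log2 of that intensity by 1 constant per array within 0.01, for all matched probes. For comparing arrays the methods name GeneSpring, a percentile shift and removal of low signals.

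Here log2 of the intensity was taken, control and outlier spots were left out, spots of 1 probe were averaged, and the array's 75th percentile was subtracted. Accessions were matched to RefSeq symbols of GRCm38.p6, used for names, and 28026 of 55681 probes (50.3%) received one. All 12 arrays, 2 per group as titled, entered 1 model with a mean per group (lmFit and eBayes of limma 3.58.1, R 4.3.3) after probes not well above background on all arrays of any compared group were removed. Scripts were tested on simulated data. For pairs of probes of 1 gene the same fit was run on their difference per array. All 15 member probes are named, while of the other lists only some genes are named, mostly those with the largest change. The members and lists were chosen with earlier results of these data known. Alternatives were normexp background correction with offset 50 (on the median spot signal, the mean not being a column), the deposited log2 table, quantile normalization, a stricter and no filter, the compared arrays alone, replicate and slide blocks, a trended robust variance, a 2-fold limit, and leaving out each array. The number of arrays limits the precision.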

Additional observations from a re-analysis of the deposited data

Results flagged for a closer look

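A direct limma test between shActb_1 and shActb_2 passed for 2 probes. The NM_001277875 probe of Tpm2 was higher with shActb_2 than with shActb_1 by a log2 difference of 0.26 (95% interval 0.14 to 0.39, adjusted p = 0.0102, limma). Tpm4 was higher by 0.21 (95% interval 0.09 to 0.33, adjusted p = 0.0203, limma). Over the alternatives the Tpm2 difference ran from 0.20 to 0.29 and that of Tpm4 from 0.03 to 0.22, and both calls were lost on leaving out any of the 4 arrays (adjusted p = 0.0504 to 0.127, limma). The Tpm4 call was also lost under quantile normalization, without a filter and in the fit to the compared arrays alone, 7 of 12 settings in all. The arrays of each hairpin were on different slides, so hairpin and slide cannot be told apart.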

How the results depend on the processing

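Of the settings tried, the fit to the compared arrays alone and the 2-fold limit moved the counts of passing member probes most. With compared arrays alone, 1 of 14 passed on the arrays labelled Srf and 1 of 13 with Mkl1, in place of 5 each. With a fold over 2 also required, the counts were 1 for Srf, 2 for Mkl1, 0 for shActb_1, 1 for shActb_2, 3 for Srf against Mkl1 and 0 for shActb_2 against shActb_1, in place of 5, 5, 4, 5, 9 and 2. A trended robust variance gave 8 for Srf. With no filter, 1 passed between the hairpins. For probe pairs, 14 passed, against 9 without a filter and 8 with the compared arrays alone. Leaving out 1 array gave 4 to 5 for Srf, 5 to 6 for Mkl1, 4 to 4 for shActb_1, 4 to 5 for shActb_2, 6 to 9 for Srf against Mkl1, 0 to 1 between the hairpins and 8 to 16 for probe pairs, the 8 without shEGFP replicate 1 and 9 without shEGFP replicate 2.

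Tpm2, Tpm4 and Tpm1 NM_001164249 kept an adjusted p below the threshold with both hairpins in all settings run, the 2-fold limit (under which Tpm4 and Tpm1 NM_001164249 lost every call and Tpm2 kept both with Mkl1 and 1 with shActb_2) aside, and with Mkl1 in all but the compared arrays alone, where 1 Tpm2 probe passed (adjusted p = 0.0494, limma). The bright Tpm3 probe turned to -0.11 with shActb_2 under quantile normalization. Tpm1 NM_001164255 passed on the arrays labelled Srf without Srf replicate 2 (0.90), and Tmod2 with Mkl1 without EGFP replicate 2 (-0.48). Without shActb_2 replicate 2 the dim Tpm3 probe NM_022314 entered the test and passed against shEGFP (fitted 1.94) and shActb_1 (fitted 1.49), the latter being the 1 call between the hairpins. Without Srf replicate 2, Tpm1 NM_001164255 also passed against Mkl1 (0.84). No scaling moved the median of all probes by over 0.1. The cause of these changes was not tested.

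Deviations of same-numbered arrays correlated at -0.002 to 0.261, so the numbers were not taken to pair the arrays. With the replicate block the counts were 4, 5, 4, 5, 9 and 2, and 13 for probe pairs, NM_001164249 against NM_001164251 of Tpm1 with shActb_1 being the one lost. The slide block changed nothing by construction and could not be fitted where no slide holds both groups.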
